A study of Mus musculus with 6 samples.

Results

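Among genes called lower in splenic CD4 T cells of Ikzf3 N159S/N159S mice with a mean level of at least 1 on the log2 CPM scale (CPM, counts scaled to equal library depth), Nacc2, Nav2 and Eya2 were 3 of the 5 with the largest falls, and they are described here beside their paralogues Nacc1, Nav1, Nav3, Eya1, Eya3 and Eya4. Together they were 9 of the 25239 genes listed for each library, found by their gene symbols. Nacc2, Nav2 and Eya2 were chosen by the size of their fall in read count from Ikzf3 +/+ to Ikzf3 N159S/N159S in these same libraries. The ranking also took only genes with both Ikzf3 N159S/N159S libraries below both Ikzf3 +/+ libraries. The absence of overlap between these 2 genotypes was thus fixed by the choice. The fall of Nacc2, Nav2 and Eya2 is therefore given as a description without a test, and tests are given for the paralogues and for measures that the choice did not use.

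RNA-seq was performed on splenic T cells sorted by flow cytometry as TCRβ+CD4+CD44-CD127+ from C57BL/6 mice of 3 genotypes, with 2 libraries each. Ikzf3 +/+ mice had 0 mutant alleles, Ikzf3 +/N159S mice had 1 and Ikzf3 N159S/N159S mice had 2, and values are given below in this order of alleles, replicate 1 before replicate 2. Ikzf3 encodes Aiolos, a zinc finger transcription factor of the Ikaros family, and the N159S allele, a single amino acid substitution, was made by CRISPR/Cas9 editing of the germline, so that it was not limited to T cells. The mice received no treatment named in the labels, and their age is not given in the sources used here for these libraries. The methods of the study count the replicates as mice, while the labels do not tie a library to an animal, so p-values measure the spread between these libraries. The sort took CD127 in place of CD62L, and therefore the genes for CD127 and CD44 were fixed in part by the gate.

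The libraries held 11696461 to 17317260 reads on genes and detected 14803 to 18147 genes. In each genotype 1 library detected more genes than its partner, namely replicate 1 of Ikzf3 +/+ and replicate 2 of the other genotypes. The 8 T cell genes of a marker list (among them Cd3e, Cd4 and Lck) summed to 3358 to 3941 CPM in all 6 libraries, which fits the labelled cell type. The sums were 3941 and 3887 with 0 mutant alleles, 3637 and 3358 with 1, and 3446 and 3374 with 2, lower in all 4 mutant libraries. With 2 mutant alleles 1 of the 8 genes was called lower and with 1 it was 0, beside 2.12% and 0.602% of all tested genes. Both Ikzf3 +/N159S libraries stood apart in sex-linked genes. Xist, transcribed from the inactive X chromosome, had 730 and 824 CPM in Ikzf3 +/N159S and 0.77 to 1.98 CPM in the other 4 libraries, whereas the Y-linked Ddx3y had 1.06 and 1.09 CPM in Ikzf3 +/N159S and 263 to 313 CPM elsewhere. The Ikzf3 +/N159S genotype and the sex of the mice therefore cannot be told apart in any comparison that uses these libraries. Ikzf3 itself had normalized counts of 2332 ± 27.7 with 0 mutant alleles, 2394 ± 165 with 1, and 2991 ± 58.0 with 2 (SD, n = 2), and since the allele changes an amino acid these levels do not check the labels.

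Nacc1 and Nacc2 encode nuclear proteins with a BTB domain, which pairs proteins, and a BEN domain, which binds DNA, and both are known as transcriptional repressors that recruit histone deacetylase complexes. Nav1, Nav2 and Nav3 encode the neuron navigators, large proteins of the cytoskeleton that follow growing microtubule ends and are best known from neurite outgrowth, and Nav2 was first described as a gene induced by retinoic acid. The Eya genes encode proteins that act both as transcriptional coactivators and as tyrosine phosphatases, with histone H2AX among their substrates, and are best known from the development of eye, ear, kidney and muscle.

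The Ikaros family recognises DNA with a GGGAA core, and the 250 bases upstream of the annotated starts were searched for these letters on both strands, so that GGGAA and TTCCC both count as copies. The sequences were taken from RefSeq (GRCm38.p6), whose table held 5 of the 9 members with 8 start sites. Nacc1, Nav3, Eya1 and Eya2 had no entry. The start sites of Nacc2 and Nav2 are shown because these genes fell, and that of Eya3 because it is a well expressed paralogue. Capitals mark the copies, and each sequence runs 5′ to 3′ on the strand of its gene up to the base before the start.
Nacc2, chr2:26122812-26123061, minus strand: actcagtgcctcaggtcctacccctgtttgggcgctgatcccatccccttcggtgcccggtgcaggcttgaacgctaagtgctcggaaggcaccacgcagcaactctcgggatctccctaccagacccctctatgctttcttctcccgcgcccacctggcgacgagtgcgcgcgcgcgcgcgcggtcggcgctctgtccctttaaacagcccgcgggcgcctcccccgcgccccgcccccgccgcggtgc
Nacc2, internal start, chr2:26092397-26092646, minus strand: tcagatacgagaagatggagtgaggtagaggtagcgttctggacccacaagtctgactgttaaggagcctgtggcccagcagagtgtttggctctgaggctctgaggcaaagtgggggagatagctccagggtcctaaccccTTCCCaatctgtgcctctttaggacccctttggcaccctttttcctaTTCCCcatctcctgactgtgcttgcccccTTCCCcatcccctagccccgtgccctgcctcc
Nav2, chr7:48958823-48959072, plus strand: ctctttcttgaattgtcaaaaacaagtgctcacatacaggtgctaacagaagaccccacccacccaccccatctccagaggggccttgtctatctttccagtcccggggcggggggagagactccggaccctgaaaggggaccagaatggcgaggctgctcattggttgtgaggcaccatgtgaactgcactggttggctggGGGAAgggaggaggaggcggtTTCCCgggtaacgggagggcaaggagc
Nav2, internal start, chr7:49245939-49246188, plus strand: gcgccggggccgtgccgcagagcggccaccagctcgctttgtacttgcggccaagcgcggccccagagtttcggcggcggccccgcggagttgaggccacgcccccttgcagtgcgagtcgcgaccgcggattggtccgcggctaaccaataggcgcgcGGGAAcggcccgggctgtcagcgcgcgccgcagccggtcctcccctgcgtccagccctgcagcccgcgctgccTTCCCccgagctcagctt
Eya3, chr4:132638796-132639045, plus strand: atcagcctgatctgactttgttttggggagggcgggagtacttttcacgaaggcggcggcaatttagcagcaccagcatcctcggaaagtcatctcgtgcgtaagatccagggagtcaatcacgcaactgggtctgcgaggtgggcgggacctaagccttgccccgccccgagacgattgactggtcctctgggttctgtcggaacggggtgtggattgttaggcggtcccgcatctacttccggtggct

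The window at the outer start of Nacc2 held 0 copies, and the window at its internal start held 3, at 108, 61 and 32 bases before the start. Each Nav2 window held 2 copies, at 48 and 27 bases before the outer start and at 91 and 18 bases before the internal start. Eya3 had 0 copies, the window of Nav1 had 2, and the 2 windows of Eya4 had 0 and 1. Over all 32851 promoters of the same length, 56.2% held at least 1 copy, 21.2% at least 2 and 5.88% at least 3. The copies describe these windows only and are not measured binding sites, and reads were counted per gene, so which start was used cannot be told from the counts.

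Nacc2 lies on the minus strand of chr2:26055535-26122811 (mm10), and its normalized count, the read count scaled by TMM to the mean library size, was 575 and 619 with 0 mutant alleles, 59.2 and 60.7 with 1, and 28.7 and 35.1 with 2. The genotypes did not overlap, and the mean with 1 mutant allele was 1.88 times the mean with 2. The means were 597 ± 31.6, 59.96 ± 1.09 and 31.9 ± 4.49 (SD, n = 2). Ikzf3 +/N159S T cells thus held 10.04% of the Ikzf3 +/+ level and Ikzf3 N159S/N159S T cells 5.35%.

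Nav2, on the plus strand of chr7:48959063-49610090, is a long gene whose normalized count was 206 and 212 with 0 mutant alleles, 43.3 and 97.4 with 1, and 8.71 and 12.1 with 2. The genotypes again did not overlap, but the Ikzf3 +/N159S libraries differed from each other more than those of the other genotypes, at 20.7% and 46.6% of the Ikzf3 +/+ mean. The higher of them, replicate 2, was also the library that detected more genes. The means were 209 ± 4.81, 70.3 ± 38.2 and 10.4 ± 2.37 (SD, n = 2), or 33.6% and 4.97% of the Ikzf3 +/+ level with 1 and 2 mutant alleles. The Ikzf3 N159S/N159S values rested on 10 and 11 reads.

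Eya2, on the plus strand of chr2:165595028-165771727, had normalized counts of 289 and 386 with 0 mutant alleles, 140 and 122 with 1, and 14.8 and 13.2 with 2. Here the level was lower at each higher number of mutant alleles, without overlap of the genotypes. The means were 337 ± 68.2, 131 ± 12.8 and 14.0 ± 1.17 (SD, n = 2), or 38.9% and 4.14% of the Ikzf3 +/+ level. Nacc2 and Eya2 share chromosome 2 but lie far apart on it.

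As log2 fold changes of Ikzf3 N159S/N159S over Ikzf3 +/+, the falls were -4.58 (SE 0.28) for Eya2, -4.34 (SE 0.41) for Nav2 and -4.24 (SE 0.19) for Nacc2. Over all 12117 tested genes, without a limit on level, they ranked 4, 8 and 9 by the size of the fall. Among called lower genes under the conditions named at the start, only Fcer2a (-4.59) preceded Eya2 and Dntt (-4.39) came between Eya2 and Nav2. Nacc2 was the last of these 5, and the next gene outside them was Cacna1i at -3.17. Of all tested genes 23.9% had both Ikzf3 N159S/N159S libraries below both Ikzf3 +/+ libraries, 22.1% had both Ikzf3 +/N159S libraries below them, and 3.67% ran from Ikzf3 +/+ down through Ikzf3 +/N159S to Ikzf3 N159S/N159S with no overlap. For Nacc2, Nav2 and Eya2 the first of these was a condition of the ranking and not a result. The third includes the first, so its share over all genes is no measure for these 3 genes. The 95% intervals of the 3 falls were -5.19 to -3.97 for Eya2, -5.25 to -3.44 for Nav2 and -4.65 to -3.83 for Nacc2. They describe genes chosen for these falls, and the order of the 3 was not tested. In a sample of sorted cells, fewer cells that express a gene and less RNA in each cell cannot be told apart.

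**Figure D1:**
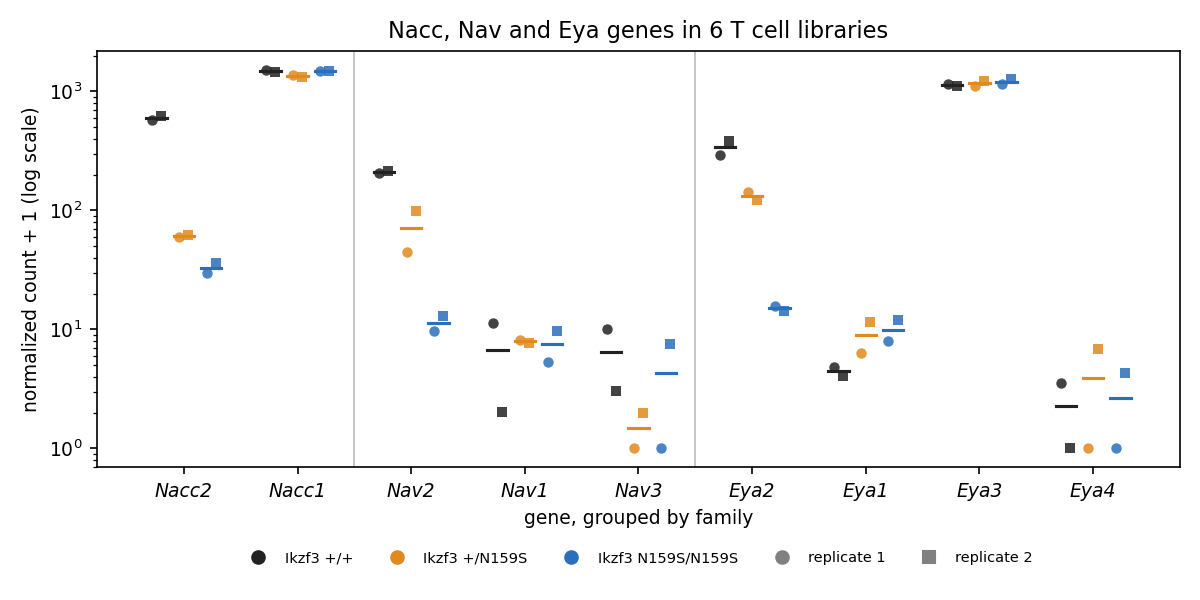
Normalized counts plus 1 (log axis) of the 9 Nacc, Nav and Eya genes in the 6 libraries, with circles for replicate 1, squares for replicate 2 and bars for the mean of each genotype. Nacc2, Nav2 and Eya2 come down from Ikzf3 +/+ to Ikzf3 N159S/N159S, Nacc1 and Eya3 stay between 1107 and 1522 in all libraries, and the other paralogues lie at 11 reads or fewer.

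To see whether the loss extended to their families, the paralogues were compared between genotypes. None of the tested paralogues passed an FDR of 0.05 in either comparison (edgeR's quasi-likelihood F-test, Benjamini-Hochberg adjusted, 0 of 3), where 5.26% of all tested genes passed for Ikzf3 N159S/N159S and 1.75% for Ikzf3 +/N159S. At an unadjusted p under 0.05 the count was 0 of 3 as well, and it was 0 of the tested paralogues at the adjusted threshold under DESeq2 and in all other alternatives. The other 3 paralogues, Nav1, Nav3 and Eya4, were too low to be tested.

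Nacc1, the other member of its family, at chr8:84670477-84687862, had normalized counts of 1522 and 1459 with 0 mutant alleles, 1374 and 1331 with 1, and 1493 and 1477 with 2. Its libraries lay within a narrow range, with both Ikzf3 +/N159S libraries a little below the rest. The log2 fold change was -0.0048 in Ikzf3 N159S/N159S (SE 0.093, 95% interval -0.21 to 0.20, FDR = 0.988) and -0.14 in Ikzf3 +/N159S (SE 0.093, interval -0.34 to 0.064, FDR = 0.494). The log2 ratio of Nacc2 to Nacc1 was -1.32 with 0 mutant alleles, -4.50 with 1, and -5.55 with 2, as the mean of 2 libraries.

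Eya3, at chr4:132639025-132724765, had 1162 and 1116 with 0 mutant alleles, 1107 and 1224 with 1, and 1147 and 1262 with 2, so that the genotypes overlapped. Its log2 fold changes were 0.080 (SE 0.10, interval -0.15 to 0.31, FDR = 0.755) with 2 mutant alleles and 0.033 (SE 0.10, interval -0.19 to 0.26, FDR = 0.907) with 1. Relative to Eya3, the log2 ratio of Eya2 went from -1.77 in Ikzf3 +/+ to -3.15 and -6.43 with 1 and 2 mutant alleles.

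Eya1, at chr1:14168953-14311035, had 3 and 3 reads with 0 mutant alleles, 6 and 11 with 1, and 8 and 10 with 2. Its counts were higher in all 4 mutant libraries, in the direction opposite to Eya2, but they were too few for a firm value. The log2 fold change was 1.34 in Ikzf3 N159S/N159S (SE 0.83, interval -0.48 to 3.15, FDR = 0.442) and 1.18 in Ikzf3 +/N159S (SE 0.84, interval -0.66 to 3.02, FDR = 0.524). In the mutant genotypes the higher Eya1 count was in the library that detected more genes.

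The remaining paralogues were at the edge of detection. Nav1 (chr1:135434580-135688350) had 8 and 1 reads with 0 mutant alleles, 8 and 7 with 1, and 5 and 8 with 2. Nav3 (chr10:109681260-110455722) had 7 and 2, 0 and 1, and 0 and 6 reads in the same order of genotypes, and Eya4 (chr10:23102962-23350838) had 2 and 0, 0 and 6, and 0 and 3. The genotypes overlapped for Nav1 and Eya4, and in Nav3 replicate 2 of Ikzf3 N159S/N159S lay within the Ikzf3 +/+ range. Where no read was found, the count of 0 allows up to 3 reads, or 0.173 to 0.198 CPM, for counting error only. A change of these genes was not detectable at this depth.

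Between genes, levels were compared per length as RPKM (reads per kilobase of exon, scaled for depth), with exon lengths from the GENCODE annotation of mm10, whereas the reads were counted on refGene. In Ikzf3 +/+ the RPKM was 23.1 ± 0.69 for Nacc1, 13.5 ± 0.39 for Eya3, 7.60 ± 1.54 for Eya2, 5.10 ± 0.27 for Nacc2 and 0.433 ± 0.010 for Nav2 (SD, n = 2), and the others were at 0.029 or below. Nacc1 and Eya3 thus led their families in all genotypes, Eya2 and Nacc2 came next with a gap smaller than 2 SD of Eya2, and Nav2 was the main Nav gene in Ikzf3 +/+. In Ikzf3 N159S/N159S the order within the Nav family was no longer separated, since Nav2 had 0.022 ± 0.0049, Nav1 0.025 ± 0.012 and Nav3 0.014 ± 0.020 RPKM. The exons of 18 Nav2 transcripts sum to 32.2 kb, which lowers its value per length.

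Next, the level with 1 mutant allele was set against the levels with 0 and 2. The geometric midpoint of Ikzf3 +/+ and Ikzf3 N159S/N159S was a normalized count of 138 for Nacc2, where Ikzf3 +/N159S had 59.96. For Nav2 the midpoint was 46.6 and the Ikzf3 +/N159S mean 70.3, and for Eya2 it was 68.7 and 131. Of the whole log2 change, 78.3% was present with 1 mutant allele for Nacc2, 36.6% for Nav2 and 29.8% for Eya2. On the linear scale all 3 lay below the arithmetic midpoint, with 95.04%, 69.8% and 63.7% of the change.

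The departure of Ikzf3 +/N159S from the midpoint on the log2 scale uses the mean of the Ikzf3 +/+ and Ikzf3 N159S/N159S levels. For Nacc2, Nav2 and Eya2 this mean comes from the counts that also chose the genes, and at unequal counts it is not independent of their difference, so the departures are given with their errors and without a test. Nacc2 lay below its midpoint, with a log2 difference of -1.20 (SE 0.19, 95% interval -1.62 to -0.77) that ran from -1.27 to -1.14 with each library left out. Eya2 lay above its midpoint, with 0.92 (SE 0.23, interval 0.43 to 1.42) and a range of 0.82 to 1.04. Nav2 had 0.58 (SE 0.35, interval -0.20 to 1.36), and the sign turned to -0.098 without replicate 2 of Ikzf3 +/N159S.

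Of the 3 tested paralogues 0 departed from the midpoint, where 1.03% of all tested genes did so, 0.206% below and 0.825% above it. Their log2 differences were -0.14 for Nacc1 (FDR = 0.547), 0.51 for Eya1 (FDR = 0.805) and -0.0067 for Eya3 (FDR = 0.987), and 0 had an unadjusted p under 0.05. The log2 ratio of Nacc2 to Eya2 normalized counts was 0.99 and 0.68 in Ikzf3 +/+, -1.25 and -1.01 with 1 mutant allele, and 0.96 and 1.42 with 2. In both libraries this ratio was lower with 1 mutant allele than with 0 or 2. The ratio is not corrected for length and does not say which gene was the higher, and the difference between the departures was not tested.

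Other genes that fell at least 2-fold in Ikzf3 N159S/N159S and were called lower there numbered 85. Their median share of the log2 change present with 1 mutant allele was 34.7%, near the values of Nav2 and Eya2. Of the 85 genes, 5 had a share as large as that of Nacc2 or larger and 32 a share as small as that of Eya2 or smaller. As Ikzf3 +/N159S shares its control libraries with the other comparison, these shares are descriptions.

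**Figure D2:**
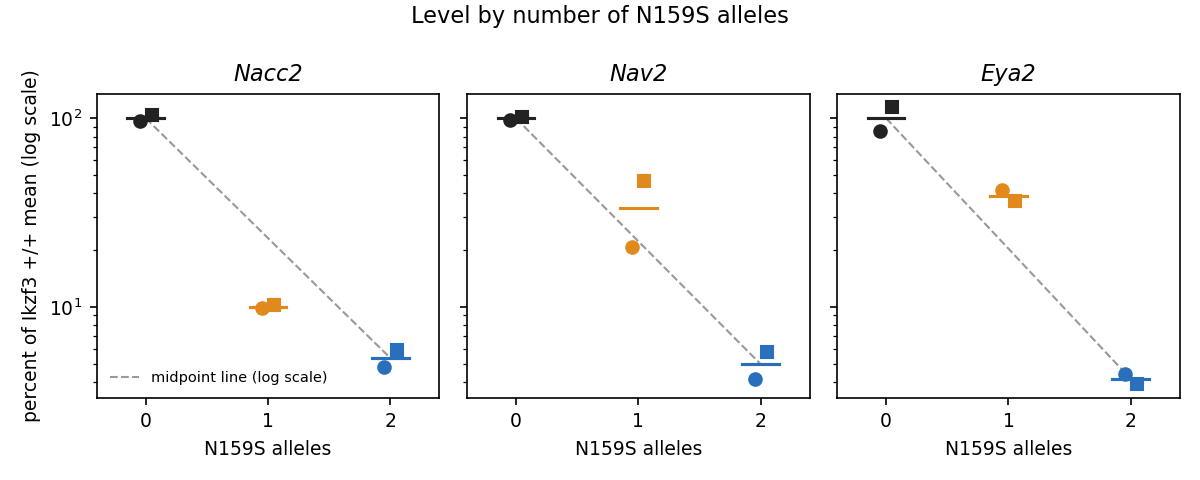
Levels of Nacc2, Nav2 and Eya2 as a percentage of the Ikzf3 +/+ mean (log axis) by number of N159S alleles, with circles for replicate 1, squares for replicate 2, solid bars for means and a dashed line through the log-scale midpoint. With 1 allele Nacc2 sits below the line at 9.91% and 10.2%, Eya2 above it at 41.6% and 36.3%, and Nav2 at 20.7% and 46.6%.

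The genes beside Nacc2, Nav2 and Eya2 were then examined, 5 on each side of each gene. Of these 30 neighbours 11 had enough reads to be tested, and 0 passed an FDR of 0.05 in either comparison by edgeR's quasi-likelihood test or by DESeq2. At an unadjusted p under 0.05 the count was 1 for Ikzf3 N159S/N159S, beside 18.3% of all genes, and 0 for Ikzf3 +/N159S, beside 16.3%. That gene was Trp53rka, 102 kb from Eya2, with a log2 fold change of 0.34 (FDR = 0.187).

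The nearest tested neighbours of Eya2 and Nacc2 had values close to 0 with 2 mutant alleles. For Nav2 no gene nearer than Zdhhc13 was tested, which lies 132 kb away and had a log2 fold change of 0.069. Zmynd8, a chromatin reader gene 12.4 kb from Eya2, had a log2 fold change of -0.075, Tmem250-ps, 14.0 kb from Nacc2, had 0.13, and Ubac1, 33.8 kb from Nacc2 on the other side, had -0.076. Over the 11 genes the log2 fold changes ran from -0.25 to 0.34 in Ikzf3 N159S/N159S and from -0.21 to 0.28 in Ikzf3 +/N159S. The other 19 neighbours had at most 18 reads in a library, among them 9130015G15Rik, which lies within Nav2 and had at most 2. Whether the counting used strand is not stated, so reads of genes that overlap a member on the opposite strand cannot be told apart from its own.

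**Figure D3:**
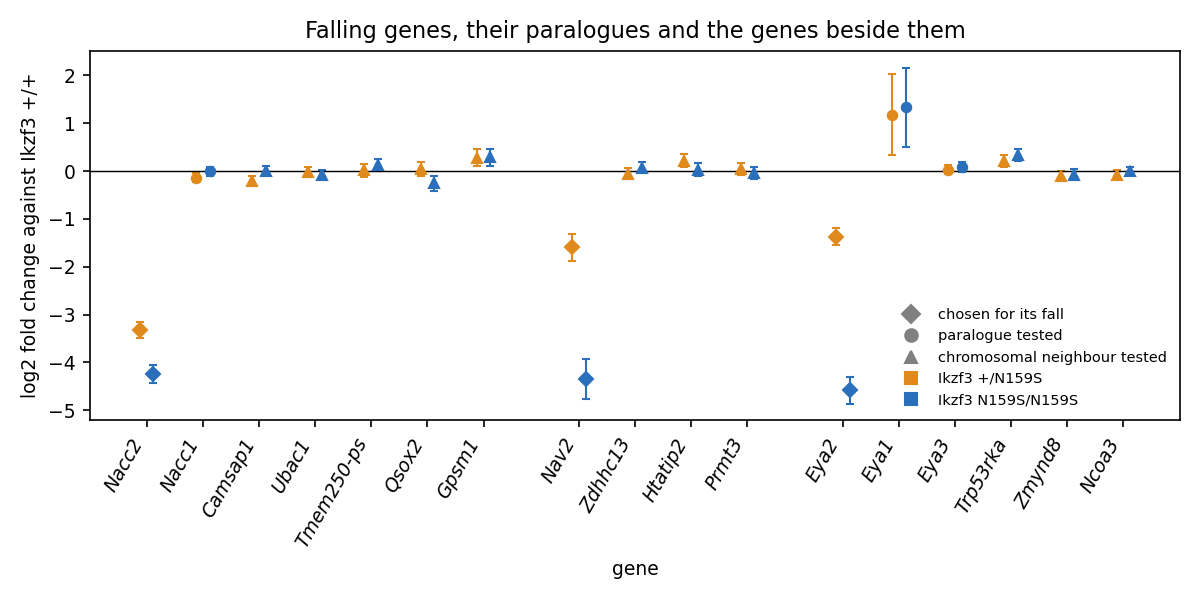
Log2 fold changes against Ikzf3 +/+ for Nacc2, Nav2 and Eya2 (diamonds), their tested paralogues (circles) and tested chromosomal neighbours (triangles), with Ikzf3 +/N159S in orange, Ikzf3 N159S/N159S in blue and bars for the standard error. The diamonds lie between -1.37 and -4.58, the neighbours between -0.25 and 0.34, and Eya1 has the widest bars.

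The genes whose pattern over the 6 libraries was most like each of the 3 were found by the root mean square distance between log2 CPM values centred on their mean, over 10405 genes. Nav2 and Eya2 were the closest pair among the 3 themselves, at 0.49, with Nacc2 at 0.82 from Nav2 and 0.99 from Eya2. The gene closest to Nav2 was Dntt, which encodes the terminal deoxynucleotidyl transferase of antigen receptor rearrangement, at 0.27, followed by Fcer2a at 0.52, Card9 at 0.71 and Xkrx at 0.72. For Eya2 the closest were Dntt at 0.67, Xkrx at 0.76, Card9 at 0.79 and Fcer2a at 0.80. For Nacc2 they were Fcer2a, the gene for CD23, at 0.47, Dntt at 0.66, Ms4a4c at 0.70 and Card9 at 0.96. Dntt, Fcer2a and Card9 were thus among the nearest 4 of all 3 genes, over only 6 libraries and among genes with large falls.

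Of these, Ms4a4c shared with Nacc2 the small step from 1 to 2 mutant alleles. Its normalized counts were 206 and 178 with 0 mutant alleles, 46.8 and 34.7 with 1, and 27.0 and 37.3 with 2, so that the mutant genotypes overlapped. Dntt had 131 and 119, 19.4 and 41.5, and 3.48 and 8.77 in the same order, with no overlap.

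Since Fcer2a is a B cell marker and Dntt a marker of immature thymocytes, the other markers of these cells are given beside them. The 12 B cell markers summed to 176 and 271 CPM with 0 mutant alleles, 441 and 719 with 1, and 173 and 115 with 2, with all 12 detected in every library. Their sum was thus highest in Ikzf3 +/N159S. Fcer2a did not follow the sum, with 7.72 and 14.1 CPM with 0 mutant alleles, 1.06 and 2.25 with 1, and 0.35 and 0.59 with 2. With 2 mutant alleles 4 of the 12 markers were called lower, beside 2.12% of all tested genes. With 1 mutant allele 5 were called higher and 1, Fcer2a, lower, beside 1.15% and 0.602% of all tested genes. The part of B cell RNA in the results was not tested.

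Of the 5 immature thymocyte markers, Dntt and Cd24a were detected in every library and were the only 2 tested. Both were called lower in Ikzf3 N159S/N159S, beside 2.12% of all tested genes. The others, Rag1, Rag2 and Ptcra, had at most 7, 1 and 3 reads. The list summed to 15.2 and 15.5 CPM with 0 mutant alleles, 7.08 and 14.1 with 1, and 2.91 and 3.66 with 2, and Dntt made up most of it in Ikzf3 +/+. The sums over all 6 libraries ran from 17.1 to 43.8 CPM for 9 myeloid markers, from 33.2 to 61.5 CPM for 8 CD8 and NK cell markers and from 0.94 to 10.2 CPM for 4 erythroid markers. The 4 regulatory T cell markers had 49.3 and 59.4, 102 and 76.8, and 50.6 and 47.1 CPM in the 3 genotypes. The 5 naive T cell markers summed to 4647 and 4512, 3999 and 3800, and 3647 and 3880 CPM, lower in all 4 mutant libraries than in Ikzf3 +/+. Of these 5, 2 were called lower in each comparison, beside 2.12% of all tested genes with 2 mutant alleles and 0.602% with 1. The 5 memory T cell markers summed to 162 and 151, 195 and 205, and 166 and 188 CPM, higher in all 4 mutant libraries. With 1 mutant allele 1 of the 5 was called higher and with 2 it was 0, beside 1.15% and 3.14% of all tested genes. From 0 to 2 mutant alleles these markers did not move together. Itgb1 went from 56.7 and 53.4 CPM to 60.6 and 72.7, and Id2 from 71.0 and 74.7 to 88.0 and 88.3. Cd44 went from 32.3 and 20.2 to 15.9 and 25.4, S100a4 from 1.37 and 1.08 to 0.41 and 0.73, and Cxcr3 from 0.86 and 1.28 to 0.76 and 0.88. The part of these cells and cell states in the falls of Nacc2, Nav2 and Eya2 was not tested.

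Genes linked to the Nacc, Nav and Eya proteins were examined in 5 lists with 87 genes, of which 63 were tested. With 2 mutant alleles 5 of them (7.94%) passed the threshold, 3 lower and 2 higher, beside 5.26% of all tested genes (2.12% lower and 3.14% higher). With 1 mutant allele 1 of the 63 (1.59%) passed, which was higher, beside 1.75% of all genes (0.602% lower and 1.15% higher).

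Among other BTB or BEN domain nuclear factors 0 of 17 tested genes passed in either comparison. Of all tested genes 5.26% passed with 2 mutant alleles and 1.75% with 1. An unadjusted p under 0.05 was found for 2 genes with 2 mutant alleles and 1 gene with 1, beside 18.3% and 16.3% of all genes. The median log2 fold change was -0.029 in Ikzf3 N159S/N159S, where that of all tested genes was 0.00038. The best expressed were Zbtb7b, the regulator of CD4 lineage choice known as ThPOK, at 0.11, and Bach2, a repressor of effector differentiation, at -0.12. Of the 12 Nacc partners in repression and protein degradation 0 passed and 2 had an unadjusted p under 0.05 in each comparison, beside the same shares of all genes. Their median with 2 mutant alleles was -0.12, with 10 of 12 below 0. Ncor1, a corepressor that recruits histone deacetylase, had -0.33 (FDR = 0.123), the histone deacetylase gene Hdac1 -0.15 and Mdm2, the ubiquitin ligase of p53, -0.18 (FDR = 0.414).

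Of the 18 Eya partners and substrates 6 were tested and 0 passed, beside 5.26% of all tested genes with 2 mutant alleles and 1.75% with 1. At an unadjusted p under 0.05 the count was 0 as well, beside 18.3% and 16.3%. Dach1, which encodes a DNA-binding partner, had no read in any library, whereas the substrate and kinase side of the list was expressed. H2ax had normalized counts of 595 and 484, 557 and 582, and 517 and 568 with 0, 1 and 2 mutant alleles, a log2 fold change of 0.010 with 2 mutant alleles. Baz1b, which encodes the kinase of the same H2AX tyrosine, had -0.20 (FDR = 0.301).

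The list of microtubule plus-end and navigator partners held most of the calls. In Ikzf3 N159S/N159S 3 of its 19 tested genes were lower and 1 was higher, 13 of 19 had a log2 fold change below 0, 11 had an unadjusted p under 0.05, and the median was -0.26. Of all tested genes 2.12% were lower, 3.14% were higher and 18.3% had such a p. Trio, a guanine nucleotide exchange factor known to act with navigators, had 1135 and 1057 with 0 mutant alleles, 794 and 825 with 1, and 687 and 657 with 2. Its libraries were ordered by the number of alleles without overlap, with log2 fold changes of -0.70 (SE 0.10, FDR = 0.0025) with 2 mutant alleles and -0.44 (FDR = 0.0571) with 1. Slain2, which promotes microtubule growth, had 1739 and 1737, 1342 and 1262, and 1246 and 1310, a log2 fold change of -0.44 (FDR = 0.0194) with 2 mutant alleles and -0.42 (FDR = 0.0517) with 1.

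Dst, which encodes a cytoskeletal linker, had 143 and 224 with 0 mutant alleles, 227 and 118 with 1, and 72.3 and 75.7 with 2. It fell with 2 mutant alleles, at -1.33 (SE 0.33, FDR = 0.0399), had -0.099 with 1 (FDR = 0.900), and the Ikzf3 +/N159S libraries spanned the Ikzf3 +/+ range. Abi2, an adaptor of actin regulation, went up from 147 and 121 to 215 and 316 with 2 mutant alleles, a log2 fold change of 0.99 (SE 0.24, FDR = 0.0399), with 124 and 186 in Ikzf3 +/N159S. Macf1, the best expressed gene of the list, had -0.34 (FDR = 0.215). Trio passed without any 1 library, whereas Slain2 was lost without either Ikzf3 +/+ or either Ikzf3 N159S/N159S library (FDR 0.0918 to 0.158), Dst without Ikzf3 +/+ replicate 2 (FDR 0.340) or either Ikzf3 N159S/N159S library (FDR 0.159 and 0.124), and Abi2 without either Ikzf3 +/+ library (FDR 0.0952 and 0.259) or Ikzf3 N159S/N159S replicate 2 (FDR 0.215).

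In the retinoic acid list 1 of 9 tested genes passed with 2 mutant alleles, beside 5.26% of all tested genes. An unadjusted p under 0.05 was found there for 2, beside 18.3%. With 1 mutant allele 1 passed, beside 1.75%, and 1 had such a p, beside 16.3%. Rarg, a nuclear receptor for retinoic acid, had normalized counts of 501 and 637 with 0 mutant alleles, 878 and 943 with 1, and 1319 and 1146 with 2. Rarg was higher in both mutant genotypes, with log2 fold changes of 1.11 (SE 0.13, FDR = 0.00056) with 2 mutant alleles and 0.67 (FDR = 0.0286) with 1. A link to Nav2 was not tested. The call with 1 mutant allele was lost without Ikzf3 +/+ replicate 1 (0.51, FDR = 0.184) and without Ikzf3 +/N159S replicate 1 (FDR = 0.0515) or 2 (FDR = 0.0903). Rara, the best expressed receptor of the list, had 0.053 (FDR = 0.839), and the genes of retinoic acid synthesis Aldh1a1, Aldh1a2 and Aldh1a3 were too low to be tested.

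**Figure D4:**
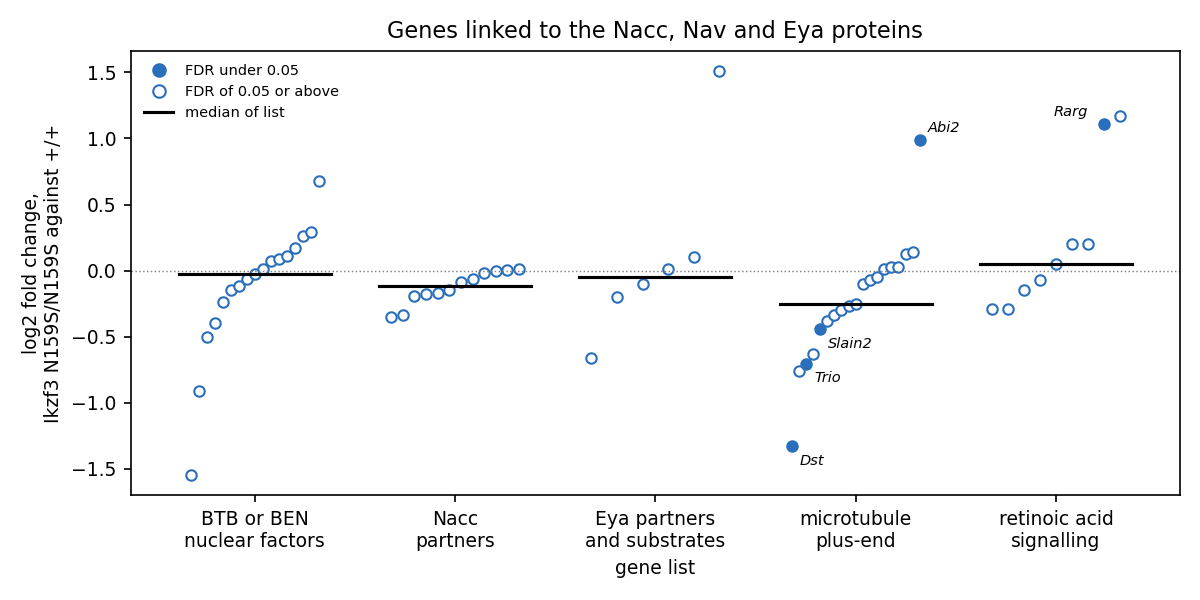
Log2 fold changes of Ikzf3 N159S/N159S against Ikzf3 +/+ for the 63 tested genes of the 5 lists, 1 point a gene in order of value, filled where the FDR was under 0.05, with bars for the list medians. The 5 filled points are Dst, Trio, Slain2 and Abi2 in the microtubule list and Rarg in the retinoic acid list.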

How the data were processed

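Read counts per gene of 6 splenic T cell libraries were used, 2 for each Ikzf3 genotype. The authors trimmed reads with Trimmomatic 0.38.1, mapped them to mm10 with HISAT2 2.2.1, counted them on refGene genes with HTSeq 2.0.2 and deposited raw counts without normalization (versions from the submitters' processing notes). Whether counting used strand is not given in the sources used here. Entries not assigned to a gene, 42.3 to 49.3% of each file, were left out.

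The tests used edgeR 4.0.16 under R 4.3.3. Its filterByExpr, with a minimum count of 10 and a total of 15, kept 12117 of 25239 genes. Libraries were scaled by TMM (factors 0.979 to 1.03), and 1 quasi-likelihood model with a coefficient per genotype was fitted to all 6 libraries. Each mutant genotype was compared with Ikzf3 +/+, and Ikzf3 +/N159S with the midpoint of the others on the log2 scale. The design also foresaw a test of this departure for Nacc2, Nav2 and Eya2, which is not used because their choice drew on the same counts. Benjamini-Hochberg adjustment ran over the 12117 genes, and an FDR under 0.05 was called. Intervals are 95%. In libraries of 11696461 to 17317260 reads on genes, a count of 0 allows 3 reads, or 0.173 to 0.256 CPM. Log2 CPM used a prior count of 2. The scripts were tested on simulated data.

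All 9 members, Ikzf3, the called genes and up to 4 of the highest levels of 5 lists, called neighbours and the 4 genes nearest in pattern could be named. The other genes named, among them Trp53rka, the nearest neighbours, the sex-linked and thymocyte markers, Cacna1i, Mdm2, Dach1 and the Aldh1a genes, were chosen after their values were seen. Certain list genes are not reported here. The members and lists were chosen with earlier results of these data known. Alternatives were DESeq2 1.42.0, its size factors, no filter, a stricter filter, a replicate block, the likelihood ratio test and each library left out. A crossed block and edgeR's earlier test were added after the data were seen.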

Additional observations from a re-analysis of the deposited data

How the results depend on the processing

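No paralogue was called in either comparison under any of 8 alternatives or without any 1 library. With each library left out, the departure of Nacc2 from its midpoint ran from -1.27 to -1.14, that of Eya2 from 0.82 to 1.04 and that of Nav2 from -0.098 to 1.06. For Nacc2, Nav2 and Eya2 these departures are descriptions, since the choice of the genes used the same counts. That of Nacc2 was -1.18 without Ikzf3 +/N159S replicate 1 and -1.14 without Ikzf3 N159S/N159S replicate 2. The departure of Eya2 was 0.92 with DESeq2 and without the filter. It was 0.93 with the likelihood ratio test and with the crossed block. Small values changed sign. For Nacc1 with 2 mutant alleles these were 0.0092 without the filter and, in a range from -0.033 with a library left out, 0.026 without Ikzf3 +/+ replicate 1 and 0.013 without Ikzf3 N159S/N159S replicate 2. Eya3 with 1 mutant allele gave -0.038 without Ikzf3 +/N159S replicate 2 (up to 0.10 without another library), and its departure, otherwise down to -0.079, gave 0.0066, 0.062 and 0.013 without Ikzf3 +/+ replicate 1, Ikzf3 +/N159S replicate 1 and Ikzf3 N159S/N159S replicate 2. The departure of Eya1 was -0.040 without Ikzf3 +/N159S replicate 2 and up to 0.94 without another library. The cause was not tested.

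Of the list genes, 5 were called with 2 mutant alleles, 12 with the crossed block and 2 to 5 with a library left out. With 1 mutant allele 1 was called, 2 with DESeq2's size factors, 3 each with DESeq2, without the filter and with the likelihood ratio test, 10 with the crossed block and 0 to 1 with a library left out. Among the neighbours 1 was called with the crossed block and 2 mutant alleles. Over all genes the calls with 2 mutant alleles, 1 mutant allele and for departure numbered 637, 212 and 125, against 902, 542 and 339 without the filter, 1042, 640 and 356 with the likelihood ratio test, and 671, 327 and 184 with DESeq2. With a library left out they ranged from 221 to 751, 68 to 250 and 66 to 117, the lowest without Ikzf3 +/+ replicate 2 for the first pair and without Ikzf3 +/N159S replicate 2 for the third.

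Between same-numbered libraries, deviations from the genotype means correlated at -0.167 for Ikzf3 +/+ and Ikzf3 +/N159S and at -0.216 for Ikzf3 +/+ and Ikzf3 N159S/N159S. They correlated at 0.238 for the mutant genotypes. These values cannot decide whether the replicate numbers of the titles pair the libraries. The library with more genes detected had another replicate number in Ikzf3 +/+ than in the mutant genotypes, which the correlations do not separate from pairing. With the replicate number as a block there were 514, 170 and 120 calls, 0 paralogues were called in either comparison, and Dst lost its call (FDR = 0.0522). The crossed block, which sets the library with more genes detected in each genotype against the other and was chosen after the data were seen, gave 1756, 1422 and 737 calls. Depth limits Eya1, Nav1, Nav3 and Eya4, which had at most 11 reads in a library.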
